A study of Mus musculus with 15 samples.

Results

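The response of normal mouse macrophages to 2 h of granulocyte-macrophage colony-stimulating factor (GM-CSF) was described from the 4 libraries of STAT5 fl/fl bone marrow-derived macrophages (BMDMs) that were treated with recombinant mouse GM-CSF (rmGM-CSF, 20 ng/mL) or left in serum-free DMEM. These 4 libraries, of 15 in the series, are the rmGM-CSF and the DMEM culture of each of 2 mice, numbered 112 and 113, and treatments were compared within each mouse. The mice were BALB/c animals of 6 wk that carried floxed Stat5a and Stat5b without Cre, so that both genes were intact. The other libraries are BMDMs of the same 2 mice in medium conditioned by 4T1 cells (4T1 CM), a mouse mammary carcinoma line, and BMDMs of 3 STAT5 cKO mice, in which the Csf1r-iCre transgene deletes both genes in cells that express the M-CSF receptor, in the same 3 media. Per the study's methods, quality control excluded 1 further STAT5 fl/fl replicate, which is not analysed here. In all, 13005 genes with more than 1 CPM (counts scaled to a common library size) in at least 2 of the 15 libraries were tested.

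GM-CSF is a hematopoietic cytokine that expands and activates myeloid cells. It binds a specific alpha chain, and the shared beta chain then brings JAK2 into the receptor complex, where it phosphorylates STAT5; the same receptor also feeds the RAS-MAPK, PI3K and NF-kB pathways. Phosphorylated STAT5 dimers enter the nucleus and bind a palindromic element in target promoters, and some of the targets, the CIS and SOCS proteins, shut the receptor down again. In macrophages and their precursors GM-CSF is known for inflammatory cytokine release and for dendritic-like features, in contrast to M-CSF, which maintains resident macrophages.

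The 4 libraries held 16842646 to 22426047 counts, so that 3 counts, used as the floor of detection, equal 0.127 to 0.187 normalized CPM. All 13 macrophage markers were detected, at a summed 33880 to 36220 CPM, and Csf1r, the M-CSF receptor, stood at 3989 and 4192 CPM with DMEM and at 4076 and 4204 CPM with rmGM-CSF. Neutrophil markers summed to 4.92 to 8.32 CPM, with 7 of 12 at 0 in all 4 libraries. T and NK cell markers summed to 10.9 to 11.2 CPM, with 8 of 11 at 0. Cd4, at 9.16 to 10.5 CPM, made up most of this sum. Lck was at 0.91 and 0.464 CPM with DMEM and at 1.93 and 1.99 CPM with rmGM-CSF. Mast cell, B cell and erythroid markers each summed to less than 1 CPM, and fibroblast markers to 5.69 to 9.61 CPM. The dendritic cell list summed to 81.3 to 107 CPM, and 8 of its 11 genes exceeded 3 counts in a library. Bst2, at 78.2 to 95.4 CPM, made up most of this sum. The list members Flt3 and Xcr1 had at most 1 count, and each untested member was at 0.683 CPM or less. Of the 3 tested genes of the list 2 rose at least 2-fold, and Bst2 was not called. Zbtb46 went from 0.546 and 0.506 CPM with DMEM to 3.86 and 1.66 CPM with rmGM-CSF, and Batf3 is described below. The endothelial list was lower with rmGM-CSF (352 and 319 CPM with DMEM, 273 and 241 CPM with rmGM-CSF). Kdr and Vwf made up nearly all of it, Pecam1 and Cdh5 had at most 10 counts, and Emcn was at 0. Of the mammary epithelium list only Cdh1 had more than 2 counts, at 0 with DMEM and at 1.31 and 1.13 CPM with rmGM-CSF. The part of other cell types in the results was not tested, and in bulk RNA fewer cells of a type cannot be told apart from less RNA per cell. The genotype was checked in the libraries of both media: Stat5a and Stat5b lay between 0 and 0.178 CPM in the STAT5 cKO libraries, against 29 to 69.8 CPM in the STAT5 fl/fl libraries with DMEM.

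GM-CSF changed the transcriptome widely, and most of the changes were small. At an adjusted p under 0.01 (edgeR quasi-likelihood test with Benjamini-Hochberg adjustment, mouse as a block), 4007 genes differed between rmGM-CSF and DMEM, or 30.8% of those tested. Of these, 2210 rose (17%) and 1797 fell (13.8%). The median change was 1.51-fold among the genes that rose and 1.58-fold among those that fell. At least 2-fold, 612 genes rose (4.71%) and 446 fell (3.43%), a balance that turned to 506 and 684 when libraries were scaled by their totals alone. At least 4-fold, the counts were 243 and 52, and at least 8-fold, 107 and 14. At least 32-fold, 37 genes rose. The 3 genes that fell at least 16-fold, picked out after their values were seen, were Gm45540, mt-Atp8 and Cd300ld4, and the last pair rests on single libraries. mt-Atp8 was at 118 CPM in the DMEM library of mouse 112 and at 1.18 to 1.61 CPM in the other 3, and Cd300ld4 at 12.7 CPM in the DMEM library of mouse 113 and at 0.0623 to 0.376 CPM in the others.

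**Figure D1:**
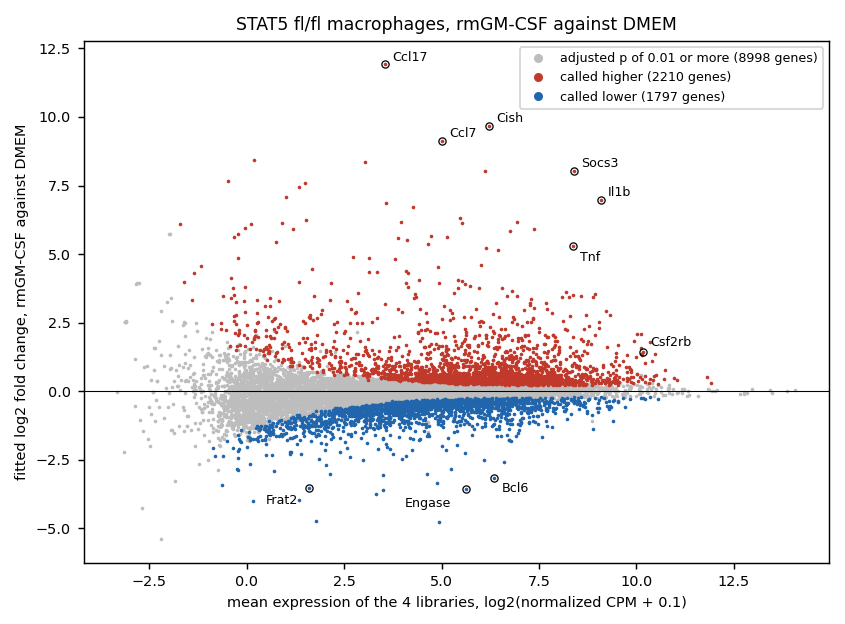
Fitted log2 fold change of rmGM-CSF against DMEM (y axis) against the mean expression of the 4 STAT5 fl/fl libraries, log2 of normalized CPM plus 0.1 (x axis), for 13005 genes. Red points are the 2210 genes called higher and blue points the 1797 called lower, and the inductions reach further from 0 than the decreases do. The fitted values of genes with no counts in DMEM, such as Ccl17, depend on the prior count of the fit.

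The RNA pool itself shifted. The genes that rose at least 2-fold held 3.15% of the counts of mouse 112 and 3.17% of mouse 113 with DMEM, and 9.3% and 9.62% with rmGM-CSF. The genes that fell at least 2-fold went from 1.66% and 1.6% to 0.614% and 0.553%. The balance of higher and lower calls depends on how the libraries are scaled. With the relative log expression factors used here, the median log2 fold change of all genes was -0.01 and 55.2% of the calls were higher, whereas scaling by library totals alone, added after the data were seen, moved the median to -0.168 and gave 1412 genes higher and 3207 lower (30.6% higher). Changes below are relative to the former scaling.

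Both mice responded alike. All 2210 genes that rose did so in both mice, as did 1796 of the 1797 that fell, and the log2 ratio of the mice differed by a median of 0.12 across the called genes. The calls were made from these same mice, so agreement and lack of overlap among called genes are in large part set by the call. The correlation over all tested genes does not depend on the calls. Across genes, which are not independent replicates, Pearson's r between the log2 ratios of the mice was 0.865 for all tested genes and 0.969 for called genes. In 37 called genes the mice differed by more than 1 on the log2 scale. The values of the treatments did not overlap in 9325 of the tested genes (71.7%), which is the background for the statements on overlap below, and among the called genes 2202 that rose and 1792 that fell had no overlap.

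**Figure D2:**
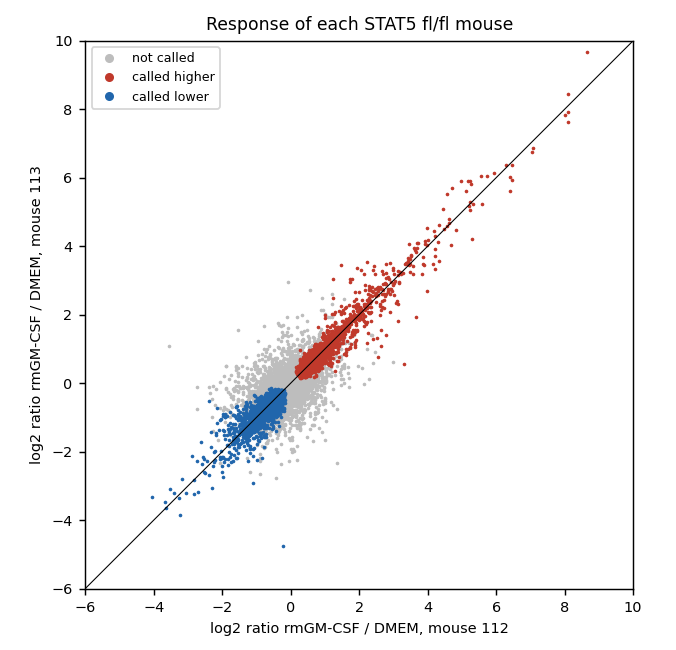
Log2 ratio of rmGM-CSF to DMEM in mouse 112 (x axis) and in mouse 113 (y axis) for the tested genes, with the line of equal response. The called genes (red higher, blue lower) lie along the line, and the single blue point far below it near 0 on the x axis is Cd300ld4.

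All tested genes of a list of classical STAT5 targets were called. Of 16 listed genes 15 passed the filter on low counts, and 13 rose and 2 fell, with a median log2 fold change of 2.06, beside -0.01 for all genes. Counts of calls in this and the later lists stand beside the 30.8% called among all tested genes (17% higher and 13.8% lower). Feedback inhibitors were among the genes that rose most in the list. Socs3, which blocks JAK kinases bound to cytokine receptors, was at 2.41 and 2.62 CPM with DMEM and at 681 and 654 CPM with rmGM-CSF. It had the smallest p of all genes, with a log2 fold change of 8.05 ± 0.10 (SE of the fit; edgeR adjusted p = 3.4e-19). Cish, which encodes CIS, a SOCS protein that binds STAT5 docking sites, went from 0.273 and 0.0844 CPM to 150 and 146 CPM (9.68 ± 0.19, edgeR adjusted p = 1.1e-16). Socs2, an inhibitor of growth hormone receptor signaling, went from 0.819 and 0.38 CPM to 28.9 and 28.4 CPM. These 3 genes were at 2.62 CPM or less with DMEM and far higher in both mice after treatment. Socs1, an inhibitor of interferon and cytokine receptors, rose less (log2 fold change 2.06 ± 0.25) and stayed at 6.11 and 4.78 CPM.

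Growth and survival genes of the list rose from higher starting levels. Pim1, a serine/threonine kinase that promotes survival, was at 48.1 and 41.1 CPM with DMEM and at 548 and 536 CPM with rmGM-CSF (3.60 ± 0.10 on the log2 scale). Cdkn1a, which encodes the cell cycle inhibitor p21, went from 79.5 and 78.8 CPM to 829 and 905 CPM (3.45 ± 0.09). Ccnd2, a D-type cyclin, rose by 2.89 ± 0.18, Bcl2l1, which encodes the survival protein BCL-XL, by 1.51 ± 0.07, Ccnd1 by 0.94 ± 0.11 and Id2, an inhibitor of basic helix-loop-helix factors, by 0.80 ± 0.10. Of the 15 tested genes of the list 2 fell, a share close to the 13.8% called lower among all tested genes. Bcl6, a transcriptional repressor that binds many of the same sites as STAT5, was at 140 and 153 CPM with DMEM and at 16.5 CPM in both rmGM-CSF libraries, a log2 fold change of -3.15 ± 0.09 (edgeR adjusted p = 6.6e-15). Gadd45g, a growth arrest gene, fell by 0.96 ± 0.15.

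**Figure D3:**
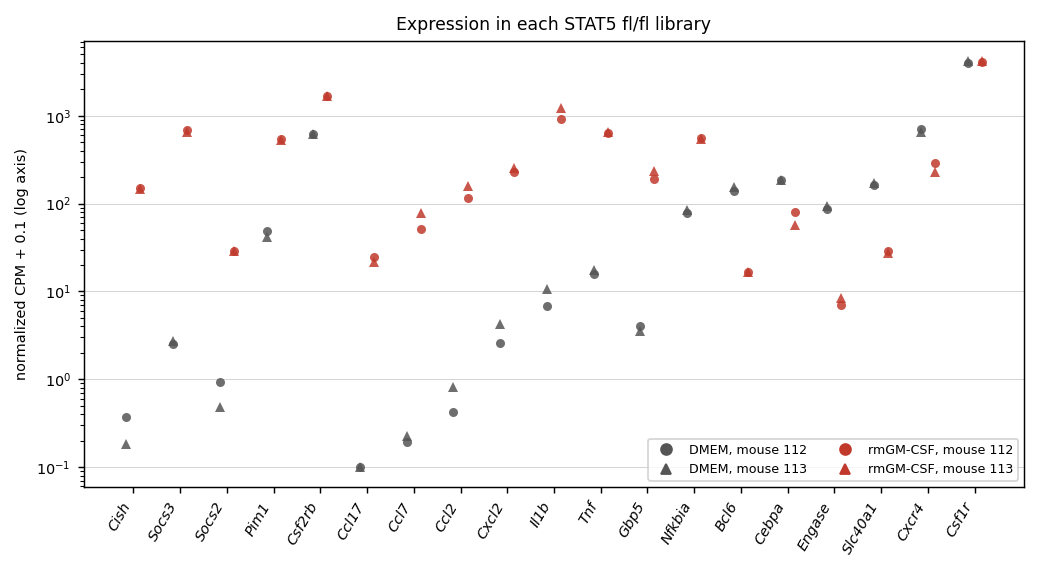
Normalized CPM plus 0.1 (log axis) of 19 genes in the 4 STAT5 fl/fl libraries, with circles for mouse 112, triangles for mouse 113, grey for DMEM and red for rmGM-CSF. The points of both mice nearly coincide for most genes, Ccl17 has no counts in either DMEM library, and Csf1r lies at 3989 to 4204 CPM in all 4 libraries.

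The promoters of 3 of these genes are shown because their windows hold the palindrome that STAT dimers bind, TTCNNNGAA, and because the genes moved in opposite directions. RefSeq windows on GRCm38.p6 reached from 250 bases before to 50 after the start of transcription; 8.3% of the 32851 windows of all genes hold the palindrome, which reads the same on both strands. The genes were chosen for display after the matches were seen. Only 71.9% of the tested genes had a window, so no share over all genes that changed was computed. Of the 15 tested STAT5 targets 11 had a window, and only the 3 shown held a match before the start. So did 3 of the 14 genes with a window in the NF-kB list and 2 of the 12 chemokines with a window, both lists described below. Ccl17 is on the STAT5 target list and on the chemokine list and is counted in both. The stretches run from 200 to 51 bases before the start on the strand of the gene (for Socs3 to 86), were cut short of exons annotated by GENCODE, and capitals mark the matches. Socs3 is at chr11:117969452-117969566, minus strand, inside an annotated Socs3 gene model and outside its exons. The upstream Bcl6 start is at chr16:23988903-23989052, minus strand, outside annotated genes, and the other Bcl6 start at chr16:23981334-23981483, minus strand, within an intron of Bcl6. Ccl17, which encodes a chemokine that attracts CCR4-bearing T cells and is described with the chemokines, is at chr8:94810253-94810402, plus strand, outside annotated genes.
Socs3: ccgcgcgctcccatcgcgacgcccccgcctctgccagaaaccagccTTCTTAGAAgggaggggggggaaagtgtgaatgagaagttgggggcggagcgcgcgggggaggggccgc
Bcl6, upstream start: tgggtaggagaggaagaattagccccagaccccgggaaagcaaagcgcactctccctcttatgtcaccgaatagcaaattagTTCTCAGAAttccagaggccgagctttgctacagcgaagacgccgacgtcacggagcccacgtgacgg
Bcl6, start inside the gene: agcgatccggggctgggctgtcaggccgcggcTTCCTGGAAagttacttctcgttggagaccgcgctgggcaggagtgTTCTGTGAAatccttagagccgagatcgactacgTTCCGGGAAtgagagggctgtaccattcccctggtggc
Ccl17: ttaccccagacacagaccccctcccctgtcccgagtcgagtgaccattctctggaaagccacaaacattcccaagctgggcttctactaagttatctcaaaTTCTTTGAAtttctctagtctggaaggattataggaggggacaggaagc
The first match starts 154 bases before the start of Socs3, 118 before the upstream start of Bcl6 and 99 before that of Ccl17. The Bcl6 start inside the gene has 3 matches, 168, 122 and 88 bases before it. The windows of Pim1, Tnf and Il1b held no match, and that of Cish lies in an exon and held none before the start. A match is a description of the letters, and binding was not measured here.

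Of the chains of the GM-CSF receptor, Csf2rb rose and Csf2ra did not pass. Csf2rb, the signaling beta chain shared with the IL-3 and IL-5 receptors, went from 618 and 617 CPM to 1661 and 1681 CPM (log2 fold change 1.44 ± 0.06, edgeR adjusted p = 3.6e-12). Csf2rb2, a mouse beta chain specific to IL-3 with a closely similar sequence, went from 526 CPM in both mice to 890 and 892 CPM, and the split of reads between the pair is uncertain. Csf2ra, the GM-CSF specific chain, was at 205 and 192 CPM with DMEM and at 265 and 223 CPM with rmGM-CSF (0.30 ± 0.09), which did not pass the threshold. Downstream, Jak2 rose from 55.1 and 55.9 CPM to 145 and 153 CPM and Stat3 from 151 and 138 CPM to 319 and 318 CPM. Stat5a rose by 0.57 ± 0.11 on the log2 scale, a call lost with either mouse left out, while Stat5b did not pass (-0.14 ± 0.09). Inpp5d, which encodes the phosphatase SHIP1, fell by 0.39 ± 0.06 (a call lost without mouse 113). Of the 22 genes of the receptor and JAK-STAT list, 9 rose, 1 fell and 12 were not called, with a median of 0.26. Csf1, the ligand of the M-CSF receptor, rose by 2.23 ± 0.12, from 8.42 and 8.27 CPM to 40.1 and 38.4 CPM. It was the only one of the 5 tested genes of the list of colony-stimulating factors and their other receptors that was called, and Csf1r was not (0.02 ± 0.07).

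Chemokines had the highest median of the 27 gene lists described here. Of 21 listed genes 19 were tested, 16 rose, 3 were not called, and the median log2 fold change was 4.06 (3.69 with genes at the floor in DMEM set to their lower bound). Ccl17 had no counts in either DMEM library and stood at 24.7 and 21.8 CPM with rmGM-CSF, at least 177-fold higher than the floor of 3 counts per library. Ccl7, a monocyte attractant, had 2 and 3 counts with DMEM and was at 51 and 77.3 CPM with rmGM-CSF, at least 488-fold higher. Its neighbour Ccl2, the main ligand of the monocyte receptor CCR2, went from 0.319 and 0.717 CPM to 114 and 160 CPM (8.02 ± 0.22, edgeR adjusted p = 4.2e-15). These genes were at or near 0 without the cytokine, and mouse 113 was above mouse 112 for both monocyte attractants after treatment.

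The induced chemokine genes lay in clusters. On GRCm38, Ccl2, Ccl7 and Ccl12 occupy consecutive places among the tested genes of chromosome 11 between 82035571 and 82103400, and each rose at least 2-fold. Ccl12, a mouse CCR2 ligand close to Ccl2 in sequence, went from 0.137 and 0.253 CPM to 18.1 and 28.6 CPM. Further along the same chromosome, between 83572919 and 83664683, the 5 consecutive tested genes that rose at least 2-fold include Ccl9, Ccl6, Ccl3 and Ccl4. Ccl3 and Ccl4, which encode the leukocyte attractants MIP-1alpha and MIP-1beta, rose from 43.8 and 47.8 to 461 and 535 CPM and from 15.9 and 17.3 to 184 and 234 CPM. Ccl9 and Ccl6 began higher and rose by 2.1 ± 0.08 and 1.83 ± 0.10. On chromosome 8, between 94745590 and 94812036, Ccl22, another CCR4 ligand, adjoins Cx3cl1 and Ccl17; it rose by 4.36 ± 0.22, from 1 and 0.844 CPM to 21.8 and 16.4 CPM.

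The neutrophil attractants lay in a cluster of chromosome 5, between 90772435 and 91021368, where Pf4, Cxcl3, Cxcl1, Cxcl2 and Mthfd2l are consecutive and rose at least 2-fold. Cxcl2 went from 2.5 and 4.13 CPM to 229 and 257 CPM (6.18 ± 0.14, edgeR adjusted p = 6.4e-16). Cxcl1 went from 1.32 and 1.26 CPM to 86.3 and 96 CPM (6.13 ± 0.17). Cxcl3 had 0 and 2 counts with DMEM and reached 12.7 and 19.4 CPM, at least 122-fold higher. The promoters of Cxcl1 and Cxcl2 are shown because both hold a pair of matches to an NF-kB element. They were chosen for display after the matches were seen. The element, which reads 3 G, 2 free bases, 3 T and 2 C, was searched on both strands. It is present in 1.63% of all windows, and before the start in 1.41%. Of the genes with a window, 4 of 12 chemokines held it before the start. So did 4 of 14 genes of the NF-kB list and 1 of 11 STAT5 targets. Cxcl1 is at chr5:90891045-90891194 and Cxcl2 at chr5:90903699-90903848, both on the plus strand of GRCm38.p6, 200 to 51 bases before the RefSeq start and outside annotated genes, with the matches in capitals.
Cxcl1: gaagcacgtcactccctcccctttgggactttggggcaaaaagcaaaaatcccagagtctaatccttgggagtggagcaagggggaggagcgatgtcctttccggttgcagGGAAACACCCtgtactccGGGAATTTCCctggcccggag
Cxcl2: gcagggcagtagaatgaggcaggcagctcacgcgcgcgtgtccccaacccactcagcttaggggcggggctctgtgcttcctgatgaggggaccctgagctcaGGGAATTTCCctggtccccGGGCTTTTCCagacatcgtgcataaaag
The matches start 89 and 71 bases before the start of Cxcl1 and 97 and 78 bases before that of Cxcl2, and the first of Cxcl1 is on the opposite strand. Cxcl10, an interferon-inducible attractant of T cells, rose by 4.06 ± 0.15. Ccl5, which encodes the T cell attractant RANTES, was at 2.69 and 2.4 CPM with DMEM and at 11.5 and 11.3 CPM with rmGM-CSF but was not called (2.16 ± 0.99, edgeR adjusted p = 0.089). The SE draws on all 15 libraries, and in a fit of the 4 libraries alone Ccl5 passed. Cxcl14 was at 70.6 and 73.2 CPM with DMEM and at 74.2 and 68.7 CPM with rmGM-CSF.

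Inflammatory cytokines rose with the chemokines. Il1b, the secreted form of interleukin 1 that caspase-1 matures, went from 6.74 and 10.4 CPM to 924 and 1239 CPM (6.98 ± 0.18, edgeR adjusted p = 1.8e-15). Its neighbour on chromosome 2, Il1a, went from 0.228 and 0.591 CPM to 27.6 and 33.6 CPM, and Il1rn, which encodes the receptor antagonist of both, from 27.4 and 20.7 CPM to 162 and 146 CPM. Tnf went from 15.7 and 17.5 CPM to 632 and 659 CPM (5.28 ± 0.13). Both interleukin 1 genes and Tnf were thus higher in either mouse than in any DMEM library. Hbegf, a ligand of the EGF receptor, rose by 4.83 ± 0.18, from 1 and 0.886 CPM to 26.8 and 26.9 CPM. Vegfa, which drives vessel growth, fell by 0.41 ± 0.11 (edgeR adjusted p = 0.0067), from 27.4 and 20.9 CPM to 20.1 and 16.3 CPM, with the ranges separated by less than 1 CPM. It missed the threshold without the mouse block and with either mouse left out. Of 25 listed cytokine and growth factor genes 18 were tested; 13 rose, 1 fell and 4 were not called, with a median of 1.02.

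All 17 genes of the NF-kB list rose, with a median log2 fold change of 1.98, and 16 of them at least 2-fold. NF-kB is held in the cytoplasm by IkB proteins that it induces itself. Nfkbie, which encodes IkB-epsilon, went from 25.1 and 30.7 CPM to 283 and 290 CPM (3.36 ± 0.08, edgeR adjusted p = 1.7e-15). Bcl3, a nuclear IkB protein, went from 16.6 and 16.3 CPM to 154 and 148 CPM. Nfkbia, which encodes IkB-alpha, went from 77.9 and 85.3 CPM to 560 and 542 CPM (2.75 ± 0.09), and Tnfaip3, which encodes the ubiquitin-editing enzyme A20, rose by 3.01 ± 0.10. Of the DNA-binding subunits, Rel rose by 1.98 ± 0.08, Nfkb1 by 1.40 ± 0.07 and Rela by 0.87 ± 0.07.

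Immediate early transcription factors divided. Of 25 tested genes 15 rose, 1 fell and 9 were not called (median 1.06). Ier3, an early response gene that limits apoptosis, went from 5.24 and 5.44 CPM to 84.3 and 89.8 CPM (4.03 ± 0.11). Maff, a small MAF protein without a transactivation domain, rose by 3.93 ± 0.13, the proto-oncogene Myc by 2.98 ± 0.11, Egr2, a zinc finger factor, by 2.67 ± 0.09, and Junb by 1.98 ± 0.09. The classical AP-1 pair did not pass at this time. Fos was at 29.9 and 30.1 CPM with DMEM and at 36.3 and 29 CPM with rmGM-CSF, and Jun at 121 and 132 CPM and at 126 and 105 CPM, so that the treatments overlapped for both. Atf3, a stress-responsive factor, was at 450 and 413 CPM with DMEM and at 386 and 362 CPM with rmGM-CSF (edgeR adjusted p = 0.05). Mafk, another small MAF protein, fell by 0.52 ± 0.09, a call lost without mouse 113.

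Feedback inhibitors of the MAPK pathway rose in 11 of 16 tested genes, 5 were not called, and the median was 1.39. Errfi1, which encodes an inhibitor of EGF receptor kinases, rose by 2.64 ± 0.11, Spred1, which restrains RAS activation, by 2.57 ± 0.11, from 75.2 and 85.8 CPM to 441 and 515 CPM. The MAPK phosphatases Dusp4 and Dusp1 rose by 2.44 ± 0.08 and 2.17 ± 0.12. Dusp6, the ERK-specific phosphatase, was at 13 and 17 CPM with DMEM and at 18.7 and 19.8 CPM with rmGM-CSF, which did not pass (edgeR adjusted p = 0.024).

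Interferon-stimulated genes were called at a share close to the 30.8% of all tested genes. Of 30 tested genes 9 rose, 1 fell and 20 were not called, with a median of 0.14 (-0.02 with library totals). The genes with large changes were guanylate-binding proteins, GTPases that attack pathogen vacuoles, and Irf1. Gbp5 went from 3.96 and 3.42 CPM to 190 and 232 CPM (5.84 ± 0.14, edgeR adjusted p = 1.1e-15). Gbp3 and Gbp2 rose by 2.61 ± 0.12 and 2.54 ± 0.10, though the near-identical genes of this family may share reads. They are among 7 consecutive tested genes on chromosome 3, between 138976312 and 142638008, that rose at least 2-fold, 5 of them Gbp genes. Irf1, an interferon regulatory factor, rose by 1.97 ± 0.08. Usp18, which removes ISG15 from proteins and dampens the interferon receptor, fell by 0.69 ± 0.11.

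Costimulatory genes rose, and genes of class II antigen presentation divided. Of 14 tested genes of this list 8 rose, 6 were not called and the median was 0.83. Cd40, the receptor for the T cell ligand CD40L, went from 2.5 and 2.19 CPM to 32.9 and 32.4 CPM (3.80 ± 0.18). Icosl, the ligand of ICOS, rose from 16.5 and 17 CPM to 178 and 198 CPM. Cd274, which encodes the checkpoint ligand PD-L1, rose from 98.1 and 82.2 CPM to 366 and 378 CPM (2.05 ± 0.09). Cd80 and Cd86, both ligands of CD28, rose by 1.63 ± 0.15 and 1.04 ± 0.09. The genes H2-DMa, H2-DMb1 and H2-DMb2, whose products load peptides onto class II molecules, rose by 0.56 ± 0.09, 0.92 ± 0.16 and 0.74 ± 0.18. The calls of H2-DMb1 and H2-DMb2 were lost without the mouse block and without mouse 112. H2-Ab1, a class II beta chain, was at 197 and 130 CPM with DMEM and at 272 and 155 CPM with rmGM-CSF (edgeR adjusted p = 0.021), and its master regulator Ciita was at 66.1 and 40.8 CPM and at 69.2 and 45.5 CPM. For both genes mouse 112 was the higher one in either medium, and the treatments overlapped. Within mice 112 and 113 both were higher with rmGM-CSF, by log2 ratios of 0.47 and 0.25 for H2-Ab1 and 0.07 and 0.16 for Ciita, without passing the threshold.

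Factors that set macrophage identity moved in both directions, with 13 of 22 tested genes higher, 3 lower and 6 not called (median 0.63). Cebpa, a factor of myeloid commitment, fell from 186 and 183 CPM to 80 and 57.4 CPM (-1.43 ± 0.15, edgeR adjusted p = 6.9e-07), while Cebpb, its relative in acute inflammation, rose from 43.4 and 34 CPM to 202 and 118 CPM. Batf3, a factor of cross-presenting dendritic cells that is also on the dendritic cell marker list, rose from 0.728 and 0.97 CPM to 6.05 and 7.14 CPM. Irf5, a factor of inflammatory macrophages, rose from 293 and 303 CPM to 898 and 910 CPM, and Spi1, which encodes the myeloid master regulator PU.1, by 0.71 ± 0.07. Irf4 rose by 0.39 ± 0.11 (edgeR adjusted p = 0.0079), a call that was lost under 6 alternatives, among them no mouse block and either mouse left out. Irf8, which monocytes and dendritic precursors need, did not move beyond its spread (0.01 ± 0.07).

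Other genes that rose were named for the smallest p or the largest fold. Trib1, a pseudokinase that targets C/EBP-alpha for degradation, went from 4.05 and 5.4 CPM to 157 and 182 CPM (5.16 ± 0.10, edgeR adjusted p = 1.1e-16). Cdc42ep2, an effector of CDC42, went from 3.6 and 3.75 CPM to 136 and 139 CPM (5.22 ± 0.10). Ehd1, an ATPase of endocytic recycling, rose by 3.50 ± 0.08, Rgl1, an exchange factor for RAL, by 3.15 ± 0.07, Sdc4, a heparan sulfate proteoglycan, by 2.94 ± 0.07 and Marcksl1, an actin-binding protein, by 2.80 ± 0.07. Rasgrp1, an exchange factor for RAS, had 1 and 0 counts with DMEM and reached 5.24 and 5.64 CPM, at least 41.3-fold higher. Mir155hg, the host transcript of the inflammatory microRNA miR-155, went from 0.319 and 0.38 CPM to 36.3 and 39 CPM (6.73 ± 0.22).

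The genes that fell with the smallest p or the largest fold were of varied function. Engase, which encodes a cytosolic enzyme that trims free glycans, went from 87.7 and 93.8 CPM to 6.86 and 8.32 CPM (-3.58 ± 0.11, edgeR adjusted p = 2e-14). Slc40a1, which encodes ferroportin, the iron exporter, went from 162 and 170 CPM to 28.4 and 27.3 CPM (-2.57 ± 0.10). Fam214a fell from 70.9 and 61.8 CPM to 9.91 and 8.59 CPM. Arrdc3, an arrestin-domain protein that promotes receptor degradation, fell from 49.7 and 57.3 CPM to 5.11 and 5.53 CPM. The rule that named these genes required that no DMEM value overlapped with an rmGM-CSF value. The transcription factor Sox4 fell by 3.01 ± 0.18, Angptl4, an inhibitor of lipoprotein lipase, by 3.03 ± 0.31 and Abhd15 by 3.61 ± 0.20. Kctd12b fell by 2.01 ± 0.11, Zfyve28, an endosomal protein that limits EGF receptor signaling, by 2.13 ± 0.10 and Gm15513 by 3.73 ± 0.18. Gm15513 is annotated as a sense intronic transcript inside Zfyve28, on the same strand. Whether its counts are separate from those of Zfyve28 was not tested. Frat2, which binds the kinase GSK3, and its neighbour Arhgap19, a small GTPase activator, fell by 3.53 ± 0.39 and 3.07 ± 0.18; with Frat1 between them they occupy 3 consecutive places on chromosome 19 between 41766588 and 41848132.

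Further genes that fell were named by the same rule. Rgs2, which shortens G protein signaling, went from 172 and 171 CPM to 49.4 and 47.5 CPM (-1.82 ± 0.09). Socs6, a SOCS protein that acts on receptor tyrosine kinases, fell from 155 and 149 CPM to 58 and 59 CPM, in the direction opposite to Socs1, Socs2, Socs3 and Cish. Mnt, a repressor that competes with MYC for its partner MAX, fell from 133 and 125 CPM to 45.9 and 36.7 CPM, while Myc rose. Rnf144b, a ubiquitin ligase, and Klhl24, a substrate adaptor of a cullin ligase, fell by 1.78 ± 0.09 and 1.66 ± 0.08, and Kcnj2, an inward rectifier potassium channel, by 1.58 ± 0.08.

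Survival genes rose in 10 of 19 tested cases, with 2 lower, 7 not called and a median of 0.52. The anti-apoptotic A1 genes rose together. Bcl2a1d went from 5.96 and 5.74 CPM to 74.6 and 85.9 CPM, Bcl2a1b from 5.33 and 6.29 CPM to 37.1 and 47.2 CPM, and Bcl2a1a from 0 and 1 count to 4.55 and 5.15 CPM, at least 36.9-fold higher. These copies are nearly identical, so the split of reads among them is uncertain. Cflar, an inhibitor of caspase-8, rose by 2.27 ± 0.09 and Mcl1, another BCL2 family protector, by 0.56 ± 0.07. The members that fell were the pro-apoptotic genes Bmf (-1.64 ± 0.13) and Bbc3, which encodes PUMA (-0.98 ± 0.12).

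Cell cycle genes gave calls in both directions. Of 18 tested G1 cyclins and inhibitors 4 rose, 5 fell and 9 were not called (median -0.19). Beside the D-type cyclins and Cdkn1a, the kinase partner Cdk6 rose by 1.44 ± 0.10 and the inhibitor Cdkn1b, which encodes p27, fell by 0.91 ± 0.11. Of 28 S and G2/M genes 2 rose, 7 fell and 19 were not called (median -0.30), a share of calls close to the 30.8% of all tested genes. Mki67, the proliferation antigen, rose from 26.4 and 22.6 CPM to 77.3 and 76.4 CPM, while Mcm7, a subunit of the replicative helicase, fell from 13.8 and 13.9 CPM to 8.48 and 5.64 CPM, a call lost without mouse 113.

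Receptors for chemoattractants and purines rose in 15 of 27 tested genes, with 4 lower and 8 not called (median 0.77). Adora2b, a low-affinity adenosine receptor, went from 0.91 and 1.26 CPM to 85.8 and 88.5 CPM (6.31 ± 0.15, edgeR adjusted p = 8.5e-16). Gpr84, a receptor for medium-chain fatty acids, rose by 4.59 ± 0.10 and Hcar2, the niacin and beta-hydroxybutyrate receptor, by 4.54 ± 0.15. Ccr1, a receptor for the Ccl3 product, rose by 3.45 ± 0.11. Cxcr4, which retains cells in the bone marrow, fell from 713 and 648 CPM to 291 and 231 CPM. Gpr34, a lysophosphatidylserine receptor, and P2rx7, the ATP-gated channel upstream of the inflammasome, fell by 2.20 ± 0.22 and 0.71 ± 0.07.

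Pattern recognition genes also moved in both directions. Of 26 tested Toll-like receptor and lectin genes 12 rose, 2 fell and 12 were not called (median 0.27). Clec4e, which encodes the mycobacterial glycolipid receptor Mincle, went from 38 and 41.5 CPM to 348 and 391 CPM, and Tlr2, which senses bacterial lipopeptides, from 152 and 161 CPM to 861 and 934 CPM. Clec7a, which encodes the beta-glucan receptor dectin-1, rose from 449 and 414 CPM to 805 and 930 CPM. The members that fell were the endosomal nucleic acid sensors Tlr9 (-0.81 ± 0.07) and Tlr7 (-0.50 ± 0.08).

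Genes of adhesion and matrix remodeling rose in 16 of 34 cases, with 4 lower and 14 not called (median 0.48). Icam1, a ligand of leukocyte integrins, went from 82.1 and 71.8 CPM to 890 and 903 CPM (3.54 ± 0.11). The urokinase receptor Plaur and its ligand Plau rose by 2.53 ± 0.09 and 1.72 ± 0.10, the fibronectin receptor chain Itga5 by 1.85 ± 0.07, the hyaluronan receptor Cd44 by 1.37 ± 0.07, and the proteases Mmp14 and Mmp12 by 3.18 ± 0.37 and 1.39 ± 0.14. Of 20 tested scavenger and phagocytic receptors 9 rose, 2 fell and 9 were not called (median 0.28), among them Msr1, which takes up modified lipoproteins (2.31 ± 0.08), the inhibitory IgG receptor Fcgr2b (1.52 ± 0.08) and the fatty acid transporter Cd36 (0.97 ± 0.07).

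Markers used to type macrophage polarization were mixed in kind. Of 16 listed genes 10 were tested and 8 rose (median 2.60). Inflammatory markers were among them: Acod1, which makes itaconate, went from 5.78 and 5.02 CPM to 312 and 337 CPM, and Ptgs2, which encodes the inducible cyclooxygenase COX-2, from 1.14 and 1.22 CPM to 46.4 and 51.6 CPM. Nos2, the inducible nitric oxide synthase, had 0 and 2 counts with DMEM and reached 3.68 and 3.27 CPM, at least 26.4-fold higher. So was Il4ra, the IL-4 receptor chain of alternative activation, which went from 54 and 55.9 CPM to 208 and 209 CPM (1.92 ± 0.07).

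Metabolic lists differed in their counts of calls, which stand beside the 30.8% called among all tested genes. The ATF4 program of amino acid stress had 15 of 18 tested genes higher, 3 not called and a median of 1.27. Chac1, which degrades glutathione, went from 3.05 and 3.25 CPM to 33.9 and 39.7 CPM, the transporter chain Slc7a5 rose by 2.16 ± 0.14, the asparagine synthetase gene Asns by 1.58 ± 0.10 and Atf4 itself by 1.20 ± 0.09. Of 22 genes of glucose uptake and glycolysis 6 rose, 3 fell and 13 were not called (median 0.18). The glucose transporter Slc2a1 rose from 32.3 and 36.3 CPM to 135 and 152 CPM, and Pfkp and Hk2, at regulated steps of glycolysis, rose by 1.24 ± 0.07 and 0.82 ± 0.10. Of 28 sterol and fatty acid genes 10 rose, 1 fell and 17 were not called (median 0.30), with Cyp51, a sterol demethylase, higher (1.22 ± 0.18) and Dhcr7, at the last step of cholesterol synthesis, lower (-0.48 ± 0.12). The call of Dhcr7 was lost with either mouse left out.

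Ribosome biogenesis genes rose in 21 of 40 cases, with 2 lower and 17 not called (median 0.29). Heatr1, a factor of pre-rRNA transcription, rose from 59 and 63.7 CPM to 185 CPM in both mice, and Nop58, a core protein of box C/D particles, by 1.04 ± 0.09, while Dkc1, the pseudouridine synthase of box H/ACA particles, fell by 0.78 ± 0.14 (a call lost without mouse 112). None of the 30 cytosolic ribosomal protein genes passed in edgeR or in DESeq2, 6 of them had an unadjusted p under 0.05 in either, and their median was 0.10 (-0.07 with library totals). Respiratory chain genes gave 2 higher and 27 not called of 29 (median 0.11, and -0.05 with library totals). Of 28 lysosome and autophagy genes 3 rose, 4 fell and 21 were not called (median -0.07), beside 30.8% called among all tested genes. The autophagy receptor Sqstm1 was higher (0.70 ± 0.08) and the initiating kinase Ulk1 lower (-1.17 ± 0.09). Regulators of mRNA decay gave 8 higher, 3 lower and 5 not called of 16 (median 0.34). Btg1, an antiproliferative factor that binds deadenylases, rose from 143 and 145 CPM to 721 and 761 CPM, the RNase gene Zc3h12a by 2.11 ± 0.07 and Zfp36, which encodes tristetraprolin, by 1.71 ± 0.07, while its paralog Zfp36l2 fell by 1.03 ± 0.09.

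**Figure D4:**
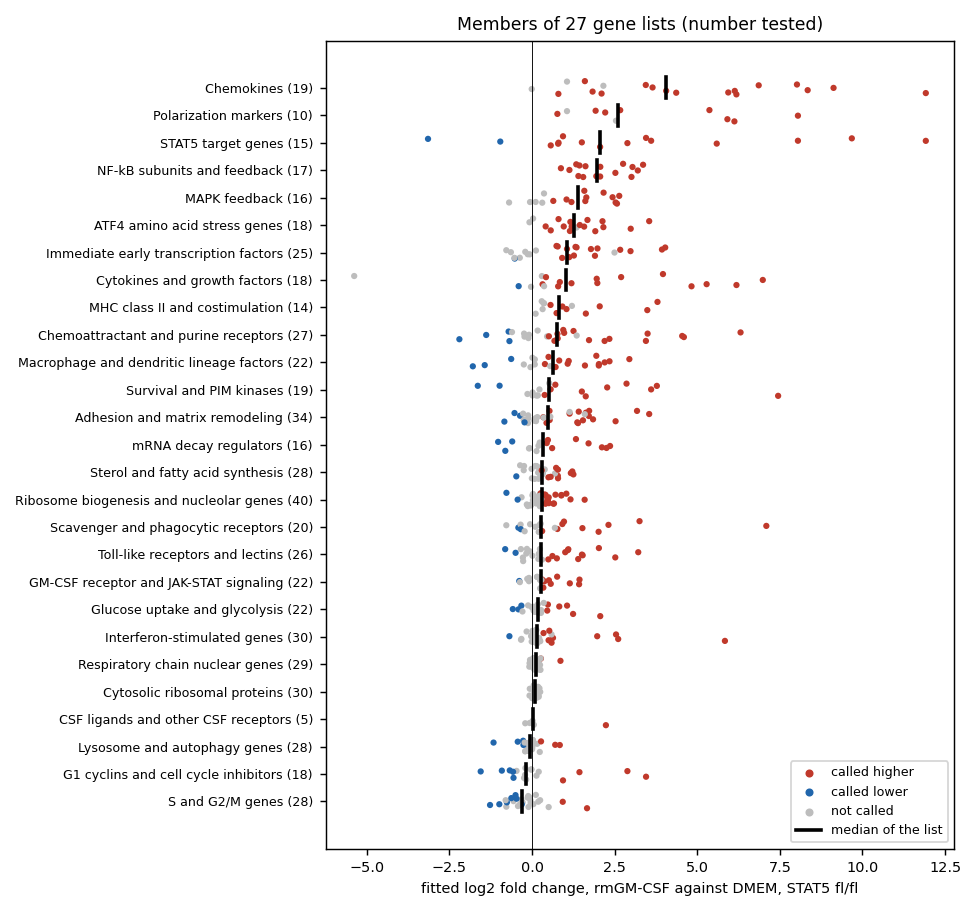
Fitted log2 fold change of rmGM-CSF against DMEM in STAT5 fl/fl macrophages (x axis) for the tested members of 27 gene lists, sorted by the median (black bar), with the number tested in brackets. Chemokines lie furthest to the right (median 4.06), cytosolic ribosomal proteins cluster at 0.10 and S and G2/M genes have the lowest median (-0.30).

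The response of STAT5 fl/fl macrophages was next set against that of STAT5 cKO macrophages, to see which changes differed when STAT5 was missing. The difference was tested as an interaction, in which the 2 genotypes share no libraries. It passed for 518 genes (3.98% of those tested), and the response was more positive in STAT5 fl/fl cells for 339 and more negative for 179. Of the genes that rose in STAT5 fl/fl cells, 338 differed between genotypes, 325 of them with the larger rise in STAT5 fl/fl. Of the genes that fell, 135 differed, 134 of them with the larger decrease in STAT5 fl/fl. Most inductions were also called without STAT5, since 1520 of the 2210 genes that rose (68.8%) and 1133 of the 1797 that fell (63%) were called in the same direction in STAT5 cKO cells, where 1870 genes rose and 1464 fell in all. For 21 genes the calls were opposite. All mice of a genotype differ from those of the other by animal as well, and 2 mice were set against 3.

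Bcl6 had the smallest p of the difference and changed direction. It fell in both STAT5 fl/fl mice and rose in STAT5 cKO cells, from 153, 158 and 144 CPM with DMEM to 264, 265 and 276 CPM with rmGM-CSF (difference of the log2 fold changes -3.97 ± 0.11, edgeR adjusted p = 8.8e-14). Gpr146, an orphan receptor, went from 69.4 and 69.6 CPM to 126 CPM in both STAT5 fl/fl mice and from 70.9, 70.8 and 64 CPM to 30, 25.7 and 31.4 CPM in STAT5 cKO (2.1 ± 0.13). Other genes with the smallest p responded in STAT5 fl/fl cells and were not called in STAT5 cKO cells. Plekhf1, an endosomal phosphoinositide-binding protein, went from 2.64 and 2.24 CPM to 41.5 and 38.9 CPM in STAT5 fl/fl and lay between 2.12 and 3.13 CPM in all 6 STAT5 cKO libraries (4.00 ± 0.25). Kcnj2 fell by 1.58 on the log2 scale in STAT5 fl/fl and had a value of -0.02 in STAT5 cKO, and Hnrnpll, a splicing regulator, rose by 1.82 against a value of 0.15.

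The other 5 of the 10 genes with the smallest p rose more in STAT5 fl/fl cells and less, yet past the threshold, in STAT5 cKO cells. Cd274 rose by 2.05 against 0.27, Il4ra by 1.92 against 0.47, Sav1, an adaptor of the Hippo kinases, by 1.84 against 0.34, Tiam1, an exchange factor for RAC, by 2.63 against 0.58 and Cdkn1a by 3.45 against 1.64. Of the 15 tested STAT5 target genes, 9 differed between genotypes, and the list had a median of 1.20 in STAT5 cKO. Socs3 kept a log2 fold change of 6.15 without STAT5 and Cish one of 3.47, against 8.05 and 9.68, while Socs2 had a value of -0.17, against 5.59. Ccl17 had at most 0.0639 CPM in the STAT5 cKO libraries, at or under the floor, yet its difference did not pass (edgeR adjusted p = 0.095).

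The inflammatory inductions showed both patterns. Cxcl1, Cxcl2, Tnf, Nfkbia, Tnfaip3 and Mir155hg were induced in both genotypes, and the test did not detect a difference for any of them. For Cxcl2 the difference was 0.32 ± 0.19 and for Nfkbia 0.12 ± 0.11 on the log2 scale. Ccl2 and Ccl7 were induced less in STAT5 cKO cells (differences of 3.88 and 6.00), as were Il1b (2.01), Ccl22 (2.57), Hbegf (2.40) and Adora2b (2.69). Of the chemokines, 8 of 19 differed and the list median was 1.84 in STAT5 cKO. Of the NF-kB list, 4 of 17 differed and the median there was 1.44.

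**Figure D5:**
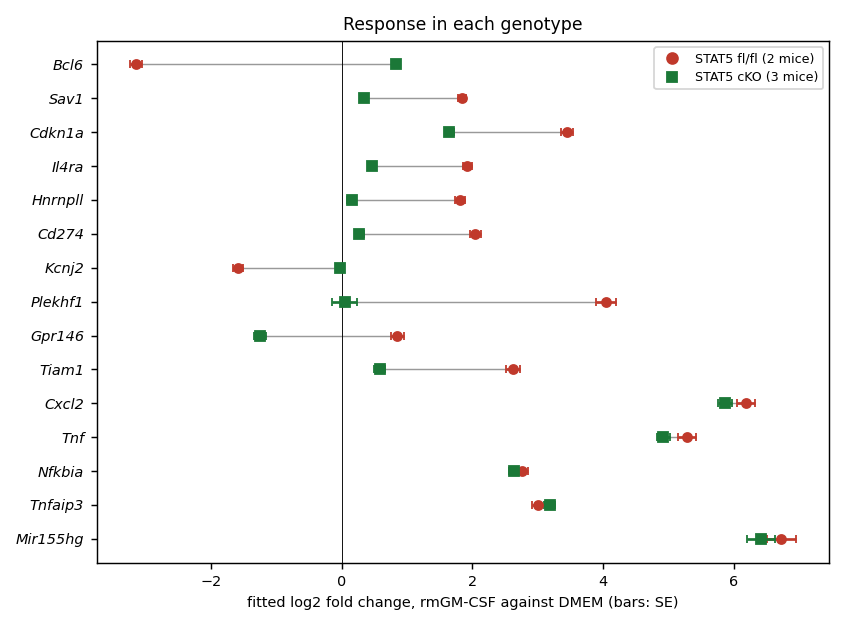
Fitted log2 fold change of rmGM-CSF against DMEM with its SE (x axis) in STAT5 fl/fl (red circles, 2 mice) and STAT5 cKO (green squares, 3 mice) macrophages. The first 10 genes have the smallest p for the difference, and the last 5, shown for contrast and chosen with their values known, have values close together in both genotypes.

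The comparison with 4T1 CM asked how far GM-CSF alone resembled the tumor cell medium in the same 2 mice. The rmGM-CSF and 4T1 CM libraries were compared directly, because both share their DMEM controls. They differed in 4286 genes (33%), of which 2327 were higher with rmGM-CSF and 1959 with 4T1 CM. Of those that differed at least 2-fold, 437 were higher with rmGM-CSF and 705 with 4T1 CM. Of the 10 genes with the smallest p, 4 were higher with rmGM-CSF. Ccl3 was at 461 and 535 CPM with rmGM-CSF and at 13.7 and 9.66 CPM with 4T1 CM (5.40 ± 0.13, edgeR adjusted p = 5e-15). Tnf was at 632 and 659 CPM against 35.6 and 29.8 CPM (4.30 ± 0.12). Rasgef1b, an exchange factor for RAP2, was at 647 and 665 CPM against 52.9 and 50.7 CPM, and Ptafr, the receptor for platelet-activating factor, at 1200 and 1151 CPM against 179 and 148 CPM. Socs3 and Cish were higher with rmGM-CSF by 1.10 ± 0.07 and 2.05 ± 0.09.

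The other 6 genes with the smallest p were lower with rmGM-CSF than with 4T1 CM. Tgfbi, a TGF-beta-induced matrix protein, was at 140 and 135 CPM against 1423 and 1712 CPM (-3.50 ± 0.08, edgeR adjusted p = 4.9e-15). Pmepa1, a TGF-beta-induced inhibitor of SMAD signaling, was at 9.29 and 5.04 CPM against 124 and 95.1 CPM. Vegfa was at 20.1 and 16.3 CPM against 217 and 212 CPM (-3.57 ± 0.10). Tgm2, a protein crosslinking enzyme, was at 510 and 442 CPM against 3731 and 3738 CPM, Sla, a Src-like adaptor, at 23.9 and 22.4 CPM against 184 and 171 CPM, and Sipa1l2, a GTPase activator for RAP, at 30.8 and 27.3 CPM against 266 and 239 CPM. The values of the 2 stimuli did not overlap for any of these genes. They were chosen by the smallest p, so this lack of overlap is in large part set by the choice.

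The genes that changed at least 2-fold had shorter spans and lower starting levels than all called genes, given here as a description. The 612 genes that rose at least 2-fold had a median span of 18700 bp and a median of 12.6 CPM with DMEM, and the 446 that fell at least 2-fold 18680 bp and 7.86 CPM. All 2210 genes that rose had medians of 23146 bp and 49 CPM, all 1797 that fell 26459 bp and 26.6 CPM, and all tested genes 19795 bp and 22.5 CPM. The power of the test grows with the count of a gene, and its part in these medians was not tested.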

How the data were processed

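RNA of BMDMs was sequenced as single bulk libraries with a stranded TruSeq kit. The authors deposited raw counts of fragments per gene for the 15 libraries, beside each gene's position and exon length, which were not used as measurements. Per the labels and the study's methods, reads were trimmed with Trimmomatic 0.33, aligned to GRCm38 with HISAT2 2.1.0 and counted by strand with featureCounts 1.6.2 at a mapping quality of at least 10; a gene that shares reads with a near-identical copy can therefore be undercounted. Of 55385 genes, 55144 matched a symbol of GENCODE vM21.

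The analysis ran in edgeR 4.0.16 under R 4.3.3. The filter kept the 13005 genes above 1 CPM in 2 or more libraries, and relative log expression factors (0.945 to 1.08) and a quasi-likelihood fit were applied to all 15 libraries, with the mouse as a block and treatment within genotype (6 residual degrees of freedom, biological coefficient of variation 0.0668). P-values were adjusted over all tested genes by the Benjamini-Hochberg method, at 0.01. The SE is the fitted log2 fold change over the square root of F. CPM values are scaled by the same factors. The same number in the library labels was taken as the same mouse, and deviations of DMEM and rmGM-CSF libraries with the same number from their group means correlated at 0.169 to 0.213. Replicate libraries differed by more than counting noise (chi-square per degree of freedom 5.47 and 5.88).

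Named genes are, per direction, the 15 with the smallest p and the 10 with the largest fold among called genes with at least 5 CPM in the higher group and no overlap, the 10 with the smallest p in each further comparison, and list members. The comparison, the gene lists and the members named were chosen with earlier results of these data known. Alternatives were TMM factors, DESeq2 1.42.0, other filters and edgeR tests, fewer libraries, no block, each mouse left out and, added after the data were seen, library totals alone. Some list members are counted but not reported by name here.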

Additional observations from a re-analysis of the deposited data

Results flagged for a closer look

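The response to rmGM-CSF differed between STAT5 fl/fl and STAT5 cKO macrophages in 518 genes (3.98% of those tested) by the edgeR interaction test. Of the 182 genes named above 83 are among them. Those genes were named in part by the smallest p of this test, so their count is in part set by the choice. Values are the log2 fold change in STAT5 fl/fl minus that in STAT5 cKO. With 2 and 3 mice per group, no group was large enough to look for a single library that stands apart.

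The response was more positive in STAT5 fl/fl cells for 66 of the named genes. Among STAT5 targets and receptor chains, the difference was 6.21 for Cish, 5.75 for Socs2, 1.90 for Socs3, 1.81 for Cdkn1a, 1.29 for Ccnd2, 1.26 for Pim1, 0.70 for Id2, 1.15 for Csf2rb and 0.61 for Csf2rb2. Among chemokines and cytokines it was 6.00 for Ccl7, 3.88 for Ccl2, 2.57 for Ccl22, 1.80 for Ccl4, 1.73 for Cxcl10, 1.46 for Ccl3, 1.40 for Ccl6, 0.93 for Ccl9, 2.40 for Hbegf, 2.01 for Il1b and 1.0 for Il1rn. Ccl7 and Cish were near the floor in DMEM, so their values depend on the prior count of the fit.

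Among transcription factors and feedback genes the difference was 3.67 for Batf3, 1.99 for Ier3, 1.05 for Egr2, 1.02 for Irf4, 0.84 for Bcl3, 0.82 for Irf5, 0.65 for Atf3, 0.61 for Junb, 0.57 for Rel, 0.53 for Irf8, 0.98 for Errfi1 and 0.72 for Spred1. For guanylate-binding and costimulatory genes it was 1.57 for Gbp5, 0.82 for Gbp3, 0.75 for Gbp2, 1.78 for Cd274 and 1.01 for Cd80. For receptors and adhesion genes it was 2.69 for Adora2b, 1.45 for Il4ra, 1.35 for Hcar2, 1.28 for Fcgr2b, 0.96 for Clec7a, 0.89 for Icam1, 0.82 for Msr1, 0.77 for Ccr1, 0.66 for Gpr84, 0.59 for Cd36 and 0.44 for Ptafr.

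For survival and metabolic genes the difference was 1.76 for Bcl2a1d, 1.75 for Bcl2a1b, 0.91 for Bmf, 1.15 for Heatr1, 1.14 for Btg1, 0.84 for Hk2, 0.55 for Pfkp and 0.51 for Slc2a1. The other signaling genes had differences of 4.00 for Plekhf1, 2.1 for Gpr146, 2.05 for Tiam1, 1.91 for Trib1, 1.86 for Cdc42ep2, 1.66 for Hnrnpll, 1.50 for Sav1, 0.97 for Rgl1, 0.91 for Sdc4 and 0.56 for Ehd1. Not every positive difference is a larger rise. Bmf fell in both genotypes, and by less in STAT5 fl/fl. Atf3 fell in STAT5 cKO cells (-0.855) and was not called in STAT5 fl/fl cells, and Gpr146 rose in STAT5 fl/fl cells and fell in STAT5 cKO cells.

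The response was more negative in STAT5 fl/fl cells for 17 named genes. The difference was -3.97 for Bcl6, -1.56 for Kcnj2, -1.29 for Abhd15, -1.07 for Sipa1l2, -1.05 for Slc40a1, -1.03 for Kctd12b, -1.0 for Rgs2, -0.99 for Engase and -0.99 for Fos. It was -0.86 for Fam214a, -0.80 for Dkc1, -0.79 for Klhl24, -0.73 for Vegfa, -0.71 for Zfyve28, -0.70 for Dusp6, -0.65 for Mnt and -0.53 for Tlr9. Fos, Dusp6 and Sipa1l2 were called in STAT5 cKO cells, where they rose, and not in STAT5 fl/fl cells. Bcl6 and Vegfa were called in both genotypes, lower in STAT5 fl/fl and higher in STAT5 cKO cells. The reasons for these differences were not tested.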

How the results depend on the processing

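Leaving out 1 mouse of either genotype in turn gave 1253 to 2235 genes higher, 772 to 1780 lower, 525 to 617 higher and 289 to 447 lower by at least 2-fold, 216 to 444 that differed between genotypes and 1966 to 4262 that differed from 4T1 CM. Without mouse 112 the counts were 1351 higher and 912 lower, and without mouse 113 they were 1253 and 772; the remaining STAT5 fl/fl mouse was then assumed to vary like the others, with fewer samples by construction. Of the genes called with both mice, 1343 and 894 were called again without mouse 112, and 1242 and 764 without mouse 113.

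Without the mouse block, 2062 genes were higher, 1642 lower and 404 differed between genotypes, and the pairing changed the calls of Vegfa, Irf4, Pmepa1, H2-DMb1, H2-DMb2 and Cd300ld4 among the named genes. Library totals without factors gave 1412 higher, 3207 lower and 684 lower by at least 2-fold. At an adjusted p under 0.05, 806 genes differed between genotypes. DESeq2 gave 2124 higher and 1562 lower, the 4 libraries alone 2943 and 2609.

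Of 2907 values of named genes under the alternatives, 2849 kept direction and side of the threshold, 30 lost the call and 20 gained it. Direction turned in 8. Leaving out a mouse in turn gave -0.05 to 0.28 for Fos, -6.24 to 0.45 for mt-Atp8, -0.09 to 0.07 for Cxcl14 and -0.32 to 0.06 for Jun, and library totals turned Csf1r (-0.14), Fos (-0.04), Ciita (-0.05) and Irf8 (-0.15). Apart from mt-Atp8 these genes had not been called. Calls were lost without mouse 112 for Stat5a, Vegfa, Irf4, Dhcr7, Dkc1, H2-DMb1, H2-DMb2 and Pmepa1, and without mouse 113 for Stat5a, Inpp5d, Vegfa, Mafk, Irf4, Mcm7 and Dhcr7. The causes were not tested. DESeq2 size factors in edgeR equal the relative log expression factors by construction. List medians turned sign with library totals for colony-stimulating factors (-0.14), interferon-stimulated (-0.02), ribosomal (-0.07) and respiratory chain genes (-0.05).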
